A study of Mus musculus with 21 samples.

Results

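The genes described here are 10 established targets and feedback regulators of the Wnt pathway, namely Axin2, Notum, Lef1, Tcf7, Nkd1, Sp5, Dkk1, Wnt11, Lgr5 and Rnf43, chosen by gene symbol from the 43436 genes listed in all files. All 10 were listed in each of the 21 libraries and all passed the filter on low values, which kept 16650 genes. Their levels are given in FPKM, fragments scaled to transcript length and to the mapped fragments of the library.

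The study followed mouse embryonic fibroblasts (MEFs) through chemical reprogramming to pluripotency, and set the intermediate cells beside extraembryonic endoderm (XEN) cells, chemically induced pluripotent stem cells (CiPSCs) and embryonic stem cells (ESCs). The intermediates were sampled on day 12 (1 library), day 16 (2), day 20 (1), day 26 (1) and day 28 (1). The XEN groups were CeXEN (2 libraries), derived from E3.5 embryos in the stage 1 chemical medium VC6TFAE with 20 ng/ml bFGF, and an established eXEN line, a gift from the Rossant laboratory, grown in the chemical medium VC6TF with 20 ng/ml bFGF (1 library) or in traditional XEN medium (1 library). The 7 CiPSC lines (N4, N6, G1, G3, C1, C2 and C3) gave 1 library each, and ESCs and MEFs from E13.5 embryos gave 2 libraries each. The MEFs, intermediates, CiPSCs and the first ESC library carried the strain label C57BL/6J-Tg(GOFGFP)11Imeg/RbrcxICR, a cross with a GFP transgene, whereas the second ESC library was C57BL/6 (B6)N and all XEN cells were wild-type ICR, so strain and cell type cannot be told apart for XEN cells against the other groups. In published protocols the C of these media stands for the GSK3 inhibitor CHIR99021. The labels used here give no medium for the intermediates on each day, the CiPSCs or the ESCs. All XEN cells in conventional medium are 1 library of 1 line, and nothing states that the numbered libraries came from separate animals or cultures, so the spread between them may be technical.

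Canonical Wnt signalling acts through beta-catenin, which GSK3 marks for destruction together with Axin and APC. When GSK3 is inhibited, or when a Wnt ligand occupies Frizzled and LRP receptors, beta-catenin accumulates and works with TCF and LEF factors to switch on target genes. Many of these targets feed back on the pathway, inside the cell (Axin2, Nkd1), on the ligand (Notum), at the receptor (Rnf43, Dkk1) or at the promoter (Tcf7, Lef1, Sp5). Wnt signals are known to shape both endoderm differentiation and the self-renewal of mouse pluripotent cells.

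Promoter windows from RefSeq (build GRCm38.p6, 250 bases before to 50 after the start) were found for 8 of the 10 genes, in 14 windows. Windows of 4 genes called higher in the intermediates than in MEFs are shown, 3 that hold a match and that of Axin2, which holds none. The windows of Tcf7 and Rnf43, also called higher, and the second window of Wnt11 held no match and are not shown. All 14 were searched on both strands for the TCF/LEF core CTTTGAT and the shorter CTTTGA that lies within it, and capitals mark the matches, written TCAAAG or ATCAAAG where the match lies on the opposite strand. CTTTGAT occurred in 2 of the 14 windows, those of Sp5 and Wnt11, and in 3.73% of all 32851 windows. CTTTGA occurred in 4 of the 14 windows, of Sp5, Wnt11, Dkk1 and Lef1, and in 16% of all windows. The Axin2 window held neither, which says only that these letters are not in that stretch. The Sp5 window lies at chr2:70474673-70474972 on the plus strand, that of Wnt11 at chr7:98834862-98835161 on the plus strand, that of Dkk1 at chr19:30549447-30549746 on the minus strand and that of Axin2 at chr11:108920099-108920398 on the plus strand.
Sp5: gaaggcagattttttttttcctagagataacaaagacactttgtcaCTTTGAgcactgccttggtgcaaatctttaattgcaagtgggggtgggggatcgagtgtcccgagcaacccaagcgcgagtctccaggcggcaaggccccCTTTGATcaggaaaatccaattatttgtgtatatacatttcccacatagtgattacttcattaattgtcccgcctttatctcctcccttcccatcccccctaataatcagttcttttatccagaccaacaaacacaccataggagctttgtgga
Wnt11: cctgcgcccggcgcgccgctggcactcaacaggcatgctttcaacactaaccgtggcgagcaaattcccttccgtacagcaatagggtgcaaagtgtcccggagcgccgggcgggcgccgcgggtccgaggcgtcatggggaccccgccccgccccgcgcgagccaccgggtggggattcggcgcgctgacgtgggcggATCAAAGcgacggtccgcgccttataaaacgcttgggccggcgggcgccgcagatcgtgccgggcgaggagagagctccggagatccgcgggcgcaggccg
Dkk1: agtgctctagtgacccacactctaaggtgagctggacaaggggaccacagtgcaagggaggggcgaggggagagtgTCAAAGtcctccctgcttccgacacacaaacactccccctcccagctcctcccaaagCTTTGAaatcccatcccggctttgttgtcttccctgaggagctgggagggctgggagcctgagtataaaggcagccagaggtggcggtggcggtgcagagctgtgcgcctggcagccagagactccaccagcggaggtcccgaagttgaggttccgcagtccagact
Axin2: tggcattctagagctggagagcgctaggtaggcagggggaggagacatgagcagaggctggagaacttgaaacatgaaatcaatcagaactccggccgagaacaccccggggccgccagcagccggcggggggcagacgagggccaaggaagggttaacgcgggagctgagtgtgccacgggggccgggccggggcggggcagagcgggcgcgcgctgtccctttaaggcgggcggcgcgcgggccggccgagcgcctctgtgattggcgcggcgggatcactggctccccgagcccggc

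The 21 libraries listed 11240 to 13982 genes at 1 FPKM or more, and relative depth, read from the confidence bounds of low genes and set to 1 in the first ESC library, ran from 0.398 in CiPSC line C3 to 1.59 in line N4. Read as counting error, the deposited bounds would give 615 to 1044 fragments for Axin2 in the intermediates. For Rnf43 they would give at most 34.3 in any library. They hold more than counting error. Rnf43 gave 13.5 at 4.33 FPKM in day 16 replicate 1 but 34.3 at 3.99 FPKM in replicate 2. With relative depths of 1.10 and 1.19, such numbers are not fragment counts. XEN markers (Gata4, Gata6, Sox17, Sox7, Foxa2 and Dab2) summed to 655 to 1361 FPKM in the intermediates, to 1036 to 1503 FPKM in the 4 XEN libraries, and to 32.3 and 33.5 FPKM in MEFs, with all 6 at 1 FPKM or more in every intermediate and XEN library. Pluripotency markers (Pou5f1, Nanog, Sox2, Zfp42, Esrrb and Dppa5a) summed to 3854 to 4649 FPKM in CiPSCs and to 4233 and 4367 FPKM in ESCs. In 4 libraries (day 12, day 16 replicate 1, day 20 and day 26) the quantifier gave 446 genes the status LOWDATA, and in the other 17 it gave none, for a reason that was not tested; day 16 replicate 2 and day 28 shared the status pattern of all other groups.

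**Figure D1:**
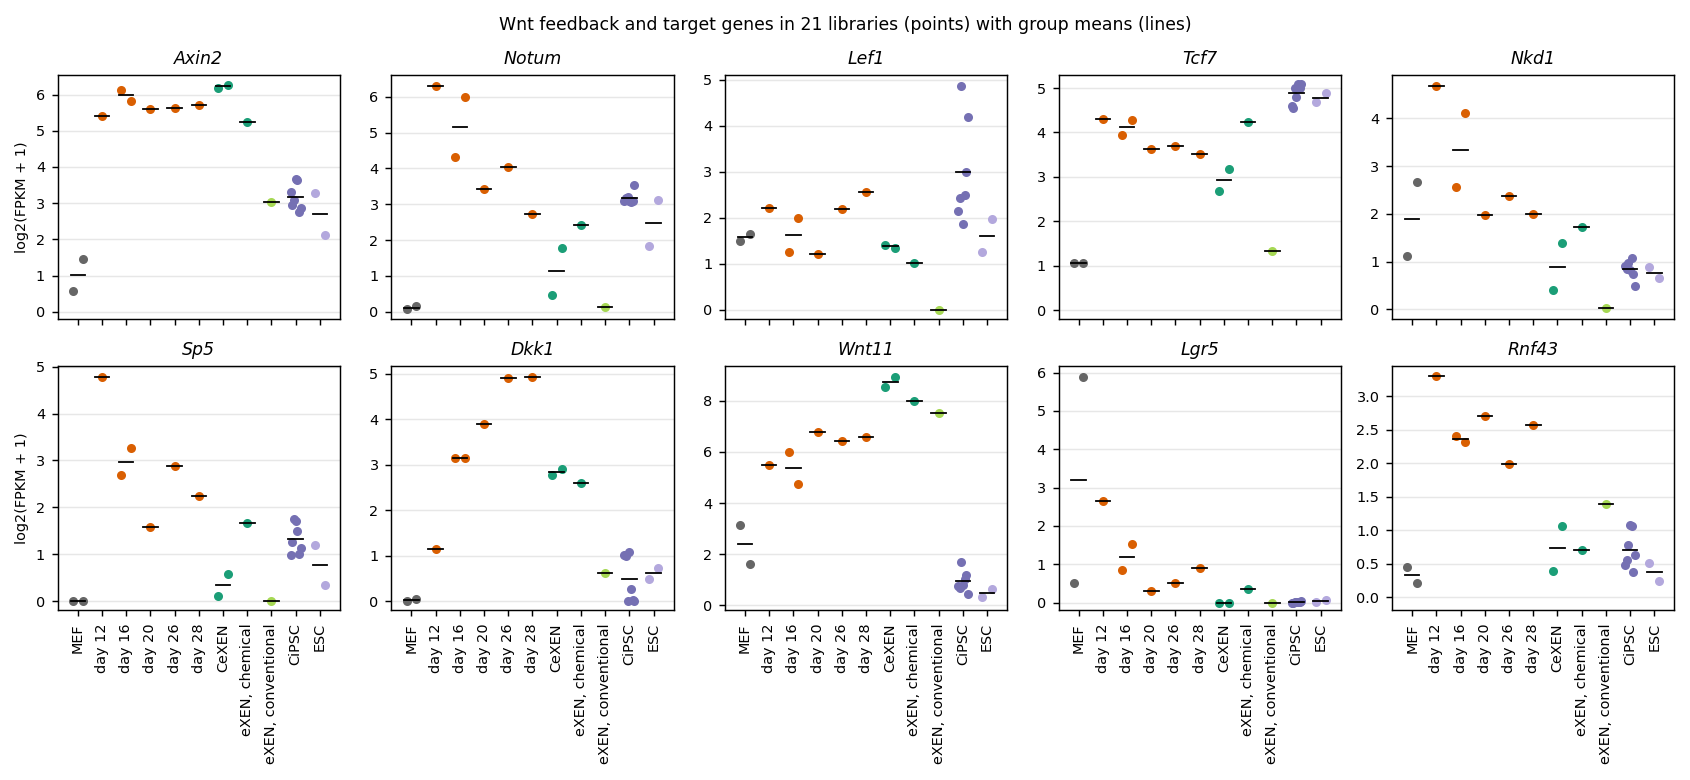
Level of each gene as log2(FPKM + 1) in the 21 libraries, 1 point per library, with a line at each group mean. Axin2, Notum, Tcf7, Sp5, Dkk1, Wnt11 and Rnf43 lie higher in all 6 intermediate libraries than in both MEF libraries.

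Across all groups, Wnt11, a secreted ligand best known for noncanonical signalling (chr7:98835112-98855195), had the widest range of the 10 genes on the linear scale. It was highest in CeXEN at 370 and 487 FPKM, followed by eXEN in chemical medium at 254 FPKM and eXEN in conventional medium at 183 FPKM, and lowest in ESCs at 0.237 and 0.564 FPKM. Neighbouring XEN groups in that order did not differ beyond 2 standard errors (SE) of the fit. Axin2, the scaffold of the beta-catenin destruction complex (chr11:108920349-108950783), fell into 3 tiers: all groups with a mean of 36.8 FPKM or more were intermediates or XEN cells in chemical medium, then came CiPSCs, eXEN in conventional medium and ESCs at means of 8.32, 7.18 and 6.02 FPKM, and then MEFs at 1.12 FPKM. The steps between those tiers, 2.06 and 1.68 on the log2 scale, were beyond 2 SE, and no step within a tier was. Tcf7, a TCF factor that includes activating and dominant negative forms (chr11:52252371-52283014), was highest in CiPSCs at a mean of 28.7 FPKM, with ESCs within 2 SE at 26.7 FPKM.

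Notum, a secreted enzyme that removes the lipid from Wnt ligands (chr11:120653788-120661175), Nkd1, an intracellular inhibitor that binds Dishevelled (chr8:88521344-88594887), Sp5, a zinc finger transcription factor (chr2:70474923-70477729), and Rnf43, a ubiquitin ligase that removes Frizzled from the cell surface (chr11:87662722-87735539), were each highest on day 12. For Sp5 the step to the next group was beyond 2 SE (1.81 on the log2 scale), and for Notum, Nkd1 and Rnf43 it was within 2 SE. Dkk1, a secreted antagonist that binds the LRP co-receptors (chr19:30545863-30549665), was highest on day 28. Lef1, a TCF family factor (chr3:131110471-131224356), was highest in CiPSCs, and Lgr5, an R-spondin receptor (chr10:115450311-115587780), in MEFs, in both cases with a step to the next group within 2 SE. All coordinates are from the deposited files (mm10). Exons of Notum overlap the antisense genes Notumos and Myadml2os, those of Axin2 overlap Gm11670, those of Lef1 overlap Gm43352 and those of Wnt11 overlap the pseudogene Gm8398, and as no source used here gives a strand setting, reads of such pairs cannot be told apart.

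The intermediates, taken over days 12 to 28, carried higher levels of most of these genes than MEFs. In a limma fit over all 21 libraries on log2(FPKM + 1), a gene was called when its Benjamini-Hochberg adjusted p was under 0.05 and its change was at least 1 log2 unit. In this fit each day had its own mean. The SE and p therefore leave out spread between days and rest on the replicated groups, mostly the 7 CiPSC lines. Of the 10 genes 7 rose and 0 fell (8 and 1 at an unadjusted p under 0.05), where 16.7% of all genes tested were called higher and 9.35% lower. The median change of the 10 genes was 2.87, against 0.23 for all genes tested, a shift of all genes that became -0.016 after quantile normalization. The 7 calls kept their direction and side of the threshold under both scalings.

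Axin2 had 41.9 FPKM in its lowest intermediate library, a median of 50.1 and 69.3 in its highest, against 0.495 and 1.75 FPKM in the MEF libraries. The groups lie far apart, and the change was 4.71 ± 0.33 (SE, 6 against 2 libraries, adjusted p = 2.08e-07, limma). Notum had 5.66, 17.2 and 78.4 FPKM as lowest, median and highest intermediate values, against 0.0499 and 0.110 FPKM in MEFs, a change of 4.36 ± 0.43 (adjusted p = 4.09e-06). Both MEF libraries were therefore close to 0 for Notum, and even the lowest intermediate library, day 28, stood above them. Dkk1 had 1.20, 10.9 and 29.3 FPKM as lowest, median and highest in the intermediates, against 0 and 0.0304 FPKM in MEFs, a change of 3.51 ± 0.32 (adjusted p = 2.28e-06). Sp5 had 2.0, 5.89 and 26.4 FPKM in the same order in the intermediates and was listed at 0 in both MEF libraries, a change of 2.91 ± 0.29 (adjusted p = 4.51e-06).

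None of these 4 genes overlapped between the groups, and the same held for the other 3 genes called; 29.8% of all genes tested were likewise higher in every intermediate library than in both MEF libraries, and 12.2% lower. Wnt11 had 25.8, 74.0 and 107 FPKM as lowest, median and highest intermediate values, against 7.88 and 2.06 FPKM in MEFs, a change of 3.62 ± 0.41 (adjusted p = 1.50e-05). Tcf7 had 10.4, 13.2 and 18.8 FPKM, against 1.09 and 1.10 FPKM in MEFs, a change of 2.83 ± 0.20 (adjusted p = 1.95e-07). Rnf43, with 2.98, 4.64 and 8.84 FPKM against 0.361 and 0.153 FPKM in MEFs, changed by 2.23 ± 0.24 (adjusted p = 8.23e-06). In a fit with only the intermediate and MEF libraries, Wnt11 missed the threshold (adjusted p = 0.0569).

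The remaining 3 genes overlapped between intermediates and MEFs. Lef1 ranged over 1.31 to 4.90 FPKM in the intermediates, against 1.82 and 2.14 FPKM in MEFs, a change of 0.33 ± 0.65 (adjusted p = 0.749) that was -0.015 after quantile normalization. Nkd1 ranged over 2.94 to 24.7 FPKM in the intermediates, against 1.17 and 5.33 FPKM in MEFs, a change of 1.06 ± 0.42 (adjusted p = 0.0571, limma). It passed the threshold in day 16 alone (1.45, adjusted p = 0.0496) and without day 16 replicate 1, day 20, day 26 or day 28. Without MEF replicate 2, which leaves 1 MEF library, the Nkd1 change was 1.84. With LOWDATA status as a covariate it was 2.09 and passed (adjusted p = 0.0182), an adjustment that rests on the 2 day 16 libraries alone. Lgr5 ranged over 0.233 to 5.32 FPKM in the intermediates, against 0.421 and 57.7 FPKM in MEFs, so that its change of -2.06 ± 0.87 (adjusted p = 0.0726) rested on a single MEF library. Without MEF replicate 2 the Lgr5 change was 0.62, and without MEF replicate 1 it was -4.75. Each of these 2 fits leaves 1 MEF library, so the gap between the MEF libraries no longer enters the SE. The Lgr5 change passed the threshold after quantile normalization (-2.53, adjusted p = 0.0315, limma) and without day 12 (-2.37, adjusted p = 0.0457). The fibroblast markers Thy1, Col1a1, Col1a2, Col3a1, Twist1 and Prrx1 summed to 2697 FPKM in MEF replicate 1 and 9768 FPKM in replicate 2, and macrophage markers to 117 and 41.0 FPKM; their part in the gap in Lgr5 was not tested. Primitive streak markers (T, Mixl1, Mesp1, Tbx6 and Eomes) summed to 7.47 to 9.90 FPKM in the intermediates against 0.601 and 0.228 FPKM in MEFs. Of these, Eomes gave 6.66 to 9.10 FPKM and is also in the trophoblast list, T was at 1.24 FPKM on day 12, 1.12 FPKM in day 16 replicate 2 and listed at 0 in the other 4 intermediates, and Mixl1, Mesp1 and Tbx6 were below 1 FPKM in all 6 intermediates. Summed levels of trophoblast markers (Cdx2, Eomes, Elf5, Tfap2c and Hand1) were 13.6 to 30.2 FPKM in the intermediates against 0.713 and 0.0936 FPKM in MEFs. Those of macrophage markers were 3.18 to 19.2 FPKM in the intermediates. Of these markers, Cd68 was at 2.47 FPKM or more in every intermediate, and Tyrobp reached 9.09 FPKM on day 28. Lyz2 was at 12.1 FPKM on day 12 and listed at 0 on day 28. Csf1r was at most 0.348 FPKM, Adgre1 at most 0.0269 FPKM and Ptprc listed at 0 in all 6 intermediates. Cd68 was also at 5.48 and 12.2 FPKM in ESCs and 5.55 to 17.3 FPKM in CiPSCs. Whether cells of these types were present, and their part in the 7 calls, was not tested.

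**Figure D2:**
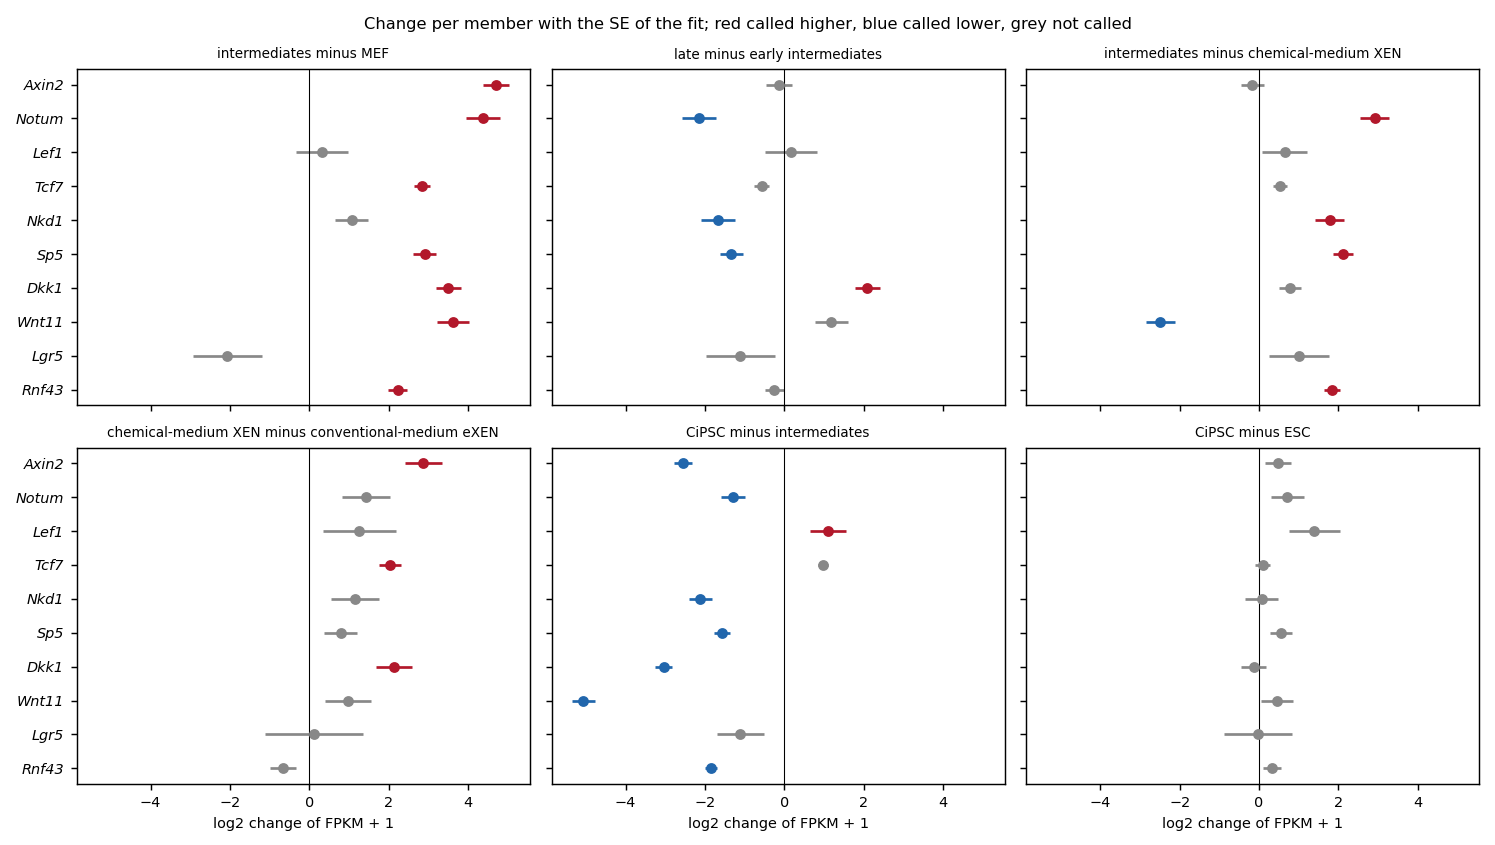
Change of each gene in log2(FPKM + 1) for the 6 fitted comparisons, the group named before "minus" less the other, with the SE of the limma fit as bars; red points were called higher, blue points lower and grey points not called. The 7 genes called in intermediates against MEFs change by 2.23 to 4.71, and no gene is called between CiPSCs and ESCs.

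Among 103 other Wnt pathway genes listed by role, 88 were tested, and 18 were higher and 13 lower in the intermediates than in MEFs (20.5% and 14.8%, beside 16.7% and 9.35% of all genes), with a median change of 0.24 beside 0.23 for all genes, so the list as a whole lay near the background. Ligands gave 3 higher of 11 tested and 1 lower: Wnt7b rose by 1.41, Wnt2b by 1.35 and Wnt2 by 1.13, and Wnt5a fell by 1.89 on the log2 scale. Porcn, which attaches the lipid that Notum removes, rose by 3.19, and Wls, which carries Wnt ligands to the cell surface, fell by 2.40. Of 16 receptors 1 rose and 6 fell, among them Fzd2 (-3.44), Ptk7 (-2.40) and Ror2 (-1.57), 9 were not called, and the median of the list was 0.015. Of 8 secreted antagonists 3 rose, namely Frzb (2.73), Dkk3 (1.14) and Wif1 (1.11). In the R-spondin axis Lgr4 (2.15) and Rspo4 (1.94) rose and Rspo3 fell (-1.51), and in the nuclear list Tcf7l2 (2.17), Tle3 (1.62) and Tle1 (1.37) rose. Transduction genes gave 1 higher (Ctnnbip1, 1.11) and 1 lower (Nkd2, -1.25) of 14. The 20 other targets tested split into 4 higher, including Tnfrsf19 (2.66) and Apcdd1 (2.20), and 3 lower, Vcan (-3.94), Cd44 (-3.42) and Trib2 (-2.89).

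Within reprogramming, the late intermediates (days 20, 26 and 28) had less Notum, Nkd1 and Sp5 and more Dkk1 than the early ones (day 12 and both day 16 libraries). Late against early, 1 of the 10 genes rose and 3 fell (2 and 4 at an unadjusted p under 0.05), where 1.23% of all genes tested were called higher and 3.85% lower; the median change was -0.41 for the 10 genes and -0.012 for all genes. The split into early and late was made with these values known. Axin2 was at 41.9 FPKM on day 12, 69.3 and 55.9 on day 16, 48.1 on day 20, 49.0 on day 26 and 51.3 on day 28. Its late and early ranges overlapped, with a change of -0.14 ± 0.33 (adjusted p = 0.905, limma).

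Dkk1 had its lowest intermediate value at the start of the series and its highest at the end, at 1.20 FPKM on day 12, 7.82 and 7.89 on day 16, 13.9 on day 20, 29.1 on day 26 and 29.3 on day 28. All late libraries stood above all early ones (2.10 ± 0.32, 3 against 3 libraries, adjusted p = 0.00205, limma). Of these 6 libraries only the day 16 pair informs the SE, which leaves out spread between days. Notum was at 78.4 FPKM on day 12, 19.1 and 63.4 on day 16, 9.73 on day 20, 15.4 on day 26 and 5.66 on day 28. All late libraries stood below all early ones (-2.15 ± 0.43, adjusted p = 0.00898). Nkd1 was at 24.7 FPKM on day 12, 4.93 and 16.3 on day 16, 2.94 on day 20, 4.19 on day 26 and 3.01 on day 28, likewise without overlap (-1.67 ± 0.42, adjusted p = 0.0279). Sp5 was at 26.4 FPKM on day 12, 5.42 and 8.58 on day 16, 2.0 on day 20, 6.35 on day 26 and 3.75 on day 28. Here the day 26 value lay above that of day 16 replicate 1, so the ranges overlapped, and the change was -1.34 ± 0.29 (adjusted p = 0.0132).

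The late and early ranges of Wnt11 and Tcf7 did not overlap either, but neither gene was called. The share of all genes tested without overlap was counted only for intermediates against MEFs. For late against early intermediates and the comparisons below, a lack of overlap therefore has no background beside it. Wnt11 was at 44.0 FPKM on day 12, 62.4 and 25.8 on day 16, 107 on day 20, 85.5 on day 26 and 94.3 on day 28, a change of 1.18 ± 0.41 (adjusted p = 0.108) that passed without day 16 replicate 1 (1.47, adjusted p = 0.0379). Tcf7 was at 18.8 FPKM on day 12, 14.5 and 18.5 on day 16, 11.4 on day 20, 12.0 on day 26 and 10.4 on day 28 (-0.57 ± 0.20, adjusted p = 0.103). Rnf43 (2.98 to 5.53 against 3.99 to 8.84 FPKM), Lgr5 (0.233 to 0.876 against 0.804 to 5.32 FPKM) and Lef1 (1.31 to 4.90 against 1.39 to 3.62 FPKM), late against early, overlapped and were not called.

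**Figure D3:**
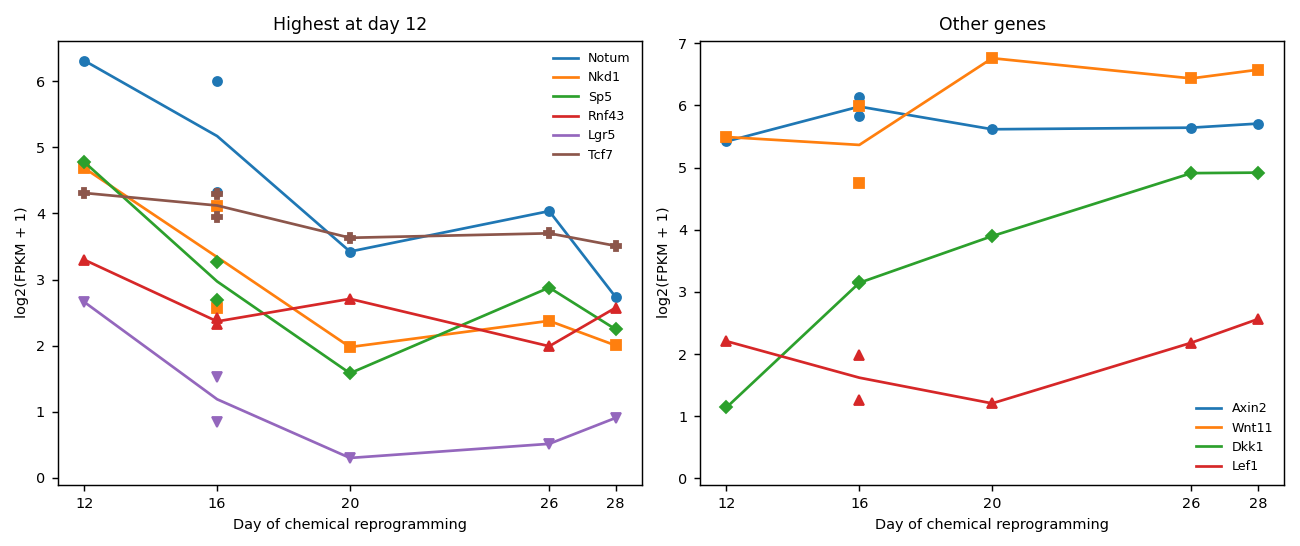
Level as log2(FPKM + 1) by day of reprogramming for the 6 genes whose highest intermediate library was day 12 (left) and the other 4 (right), 1 point per library with lines through the means of each day. Notum goes down to 5.66 FPKM on day 28 while Dkk1 reaches 29.3 FPKM.

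Day 12 decided the calls over time: without it 0 genes rose and 0 fell, with changes of 1.43 for Dkk1 (adjusted p = 0.0813), -1.77 for Notum (0.105), -1.22 for Nkd1 (0.264) and -0.74 for Sp5 (0.345). Without day 20 or without day 28, 1 of the 3 lower calls remained, and in a fit with the intermediates alone 0 genes were called in either direction. The 2 day 16 libraries also stood apart, since replicate 1 correlated at 0.975 with day 20 and 0.970 with day 26 over all genes tested but at 0.935 with replicate 2. Within the 4 LOWDATA libraries Notum was 9.73 and 15.4 FPKM late against 78.4 and 19.1 FPKM early, and Dkk1 13.9 and 29.1 FPKM late against 1.20 and 7.82 FPKM early. Nkd1 was 2.94 and 4.19 FPKM late against 24.7 and 4.93 FPKM early in these libraries. Sp5 overlapped there, at 2.0 and 6.35 FPKM late against 26.4 and 5.42 FPKM early. Between day 28 and day 16 replicate 2, the 2 libraries outside that set, Notum was 5.66 against 63.4 FPKM and Dkk1 29.3 against 7.89 FPKM. Nkd1 was 3.01 against 16.3 FPKM and Sp5 3.75 against 8.58 FPKM in that pair.

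The fibroblast marker sum had the same order over the 6 intermediate libraries as Notum: 829 FPKM on day 12, 481 in day 16 replicate 2, 206 in day 16 replicate 1, 129 on day 26, 71.7 on day 20 and 15.6 on day 28. Of the 6 markers, all were at 1 FPKM or more in every intermediate library except day 28, where 4 were. In MEFs, where that sum was 2697 and 9768 FPKM, Notum was at 0.0499 and 0.110 FPKM and Sp5 was listed at 0. Nkd1 was at 1.17 and 5.33 FPKM in the same MEF libraries, the higher value being above all late intermediates. In these bulk samples fewer cells of a type and less RNA per cell cannot be told apart, and the part that cell makeup had in the decline of Notum, Nkd1 and Sp5 was not tested. Pluripotency markers summed to 20.4 FPKM on day 12 and to 153 and 4.5 FPKM on day 16. The sum was 125 FPKM on day 20, 618 on day 26 and 310 on day 28. Except in day 16 replicate 2, most of each sum was Dppa5a, at 13.6, 131, 0.727, 97.2, 558 and 249 FPKM in the same order. Pou5f1 was at most 0.521 FPKM up to day 20, then 18.9 on day 26 and 6.23 on day 28. Nanog reached at most 2.79 FPKM, Zfp42 4.62, Sox2 10.6 and Esrrb 39.1 in the intermediates. The part of these markers in the rise of Dkk1 was not tested. Dkk1 itself was at 0 to 1.11 FPKM in CiPSCs and at 0.405 and 0.669 FPKM in ESCs.

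Of the 88 other Wnt genes tested, 0 rose and 17 fell in the late intermediates (19.3% lower, beside 3.85% of all genes), with a median of -0.30. The ligands Wnt2b (-2.71), Wnt2 (-2.50), Wnt5a (-2.09) and Wnt4 (-1.81) fell, as did the antagonists Dkk2 (-2.45) and Wif1 (-1.91). Wnt2b was at 28.8 FPKM on day 12, 5.40 and 15.1 on day 16, 1.88 on day 20, 2.11 on day 26 and 0.234 on day 28, with the highest values in the same libraries as Notum. Receptors gave 3 lower of 16 (Fzd1, -1.57, Ptk7, -1.46, and Fzd6, -1.33), and the R-spondin axis 2 of 6 (Rspo4, -1.25, and Lgr6, -1.03). Wls (-1.42), Nkd2 (-1.34) and the targets Ccnd1 (-2.44), Mmp7 (-1.58), Vcan (-1.56) and Id2 (-1.42) also fell, and 0 of 11 nuclear genes were called.

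Compared with XEN cells in chemical medium (both CeXEN libraries and eXEN in chemical medium), the intermediates had an overlapping range of Axin2, higher Notum, Nkd1, Sp5 and Rnf43, and lower Wnt11. The counts were 4 higher and 1 lower of 10 (6 and 1 at an unadjusted p under 0.05), where 12.9% of all genes tested were called higher and 2.51% lower. The median was 0.89 for the 10 genes and 0.14 for all genes. Axin2 was at 41.9, 50.1 and 69.3 FPKM (lowest, median and highest) in the intermediates, against 71.6, 76.2 and 36.8 FPKM in CeXEN 1, CeXEN 2 and eXEN in chemical medium. These ranges overlapped fully, and the change was -0.17 ± 0.29 (adjusted p = 0.697, limma), which does not show that the levels were equal.

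Notum was at 5.66, 17.2 and 78.4 FPKM in the intermediates, against 0.390, 2.46 and 4.37 FPKM in those XEN libraries in the same order, a change of 2.91 ± 0.37 (adjusted p = 8.03e-05). Wnt11 was at 25.8, 74.0 and 107 FPKM, against 370, 487 and 254 FPKM in chemical-medium XEN (-2.49 ± 0.36, adjusted p = 0.000205). Every intermediate library was above every chemical-medium XEN library for Notum and below every one for Wnt11. Rnf43, at 2.98, 4.64 and 8.84 FPKM against 0.314, 1.09 and 0.627 FPKM, also had no overlap (1.83 ± 0.20, adjusted p = 2.98e-05), nor did Nkd1, at 2.94, 4.56 and 24.7 FPKM against 0.318, 1.62 and 2.30 FPKM (1.78 ± 0.36, adjusted p = 0.00247). Sp5, at 2.0, 5.89 and 26.4 FPKM against 0.0793, 0.483 and 2.19 FPKM, overlapped through day 20 and the eXEN library (2.12 ± 0.25, adjusted p = 4.29e-05). Of these 5 calls only that of Sp5 remained when the fit held the intermediates and chemical-medium XEN alone.

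Tcf7 (0.53 ± 0.17, adjusted p = 0.0299, limma) passed the test but not the fold. Dkk1 (0.77 ± 0.28, adjusted p = 0.0511) passed neither, and was called only without day 12 (1.25, adjusted p = 0.00646). Lef1 (0.64 ± 0.57) and Lgr5 (1.01 ± 0.75) were not called, though Lgr5 passed with a pseudocount of 0.1 (2.80, adjusted p = 0.0425). Fibroblast markers summed to 15.6 to 829 FPKM in the intermediates against 2.94 to 40.7 FPKM in chemical-medium XEN, and their part in these differences was not tested. Of the other Wnt genes, 25 were higher and 4 lower of 88 tested (28.4% and 4.55%, beside 12.9% and 2.51% of all genes; median 0.49), with 6 of 11 ligands higher, among them Wnt2b (2.37), Wnt5a (2.25) and Wnt2 (2.17), and Porcn up by 2.59. Secreted antagonists gave 5 higher, led by Dkk3 (2.82) and Sfrp2 (2.57), and 1 lower, Frzb (-2.13). Receptors gave 2 higher (Fzd1, 2.15, and Fzd6, 1.54), and other targets 8 higher, led by Sox9 (2.83) and Ccnd1 (2.52), and 1 lower (Sp8, -1.70).

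The eXEN line was sequenced in both media, which sets the chemical medium against the conventional one in 1 line, with 1 library each and therefore no test. In chemical medium 7 of the 10 genes were at least 1 log2 unit higher and 0 at least 1 lower, where 7.05% of all genes tested were that much higher and 3.97% that much lower. Tcf7 was at 17.9 FPKM in chemical and 1.53 FPKM in conventional medium, a difference of 2.90. Notum was at 4.37 and 0.0926 FPKM (2.30), and Axin2 at 36.8 and 7.18 FPKM (2.21), chemical medium before conventional. All 3 are textbook beta-catenin targets, and the inhibitor of GSK3 was in the chemical medium, but so were its other compounds and bFGF, so their parts cannot be told apart.

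Dkk1 was at 5.08 FPKM in chemical and 0.542 FPKM in conventional medium (1.98), and Nkd1 at 2.30 and 0.0148 FPKM in the same order (1.70). Sp5, at 2.19 FPKM, and Lef1, at 1.02 FPKM in chemical medium, were both listed at 0 in conventional medium. Wnt11 was at 254 FPKM in chemical and 183 FPKM in conventional medium, a difference of 0.47, and Lgr5 at 0.280 FPKM and listed at 0. Rnf43 was the sole gene lower in chemical medium, at 0.627 against 1.61 FPKM (-0.68), and both values had wide deposited bounds. XEN markers were at 1036 FPKM in chemical and 1243 FPKM in conventional medium.

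**Figure D4:**
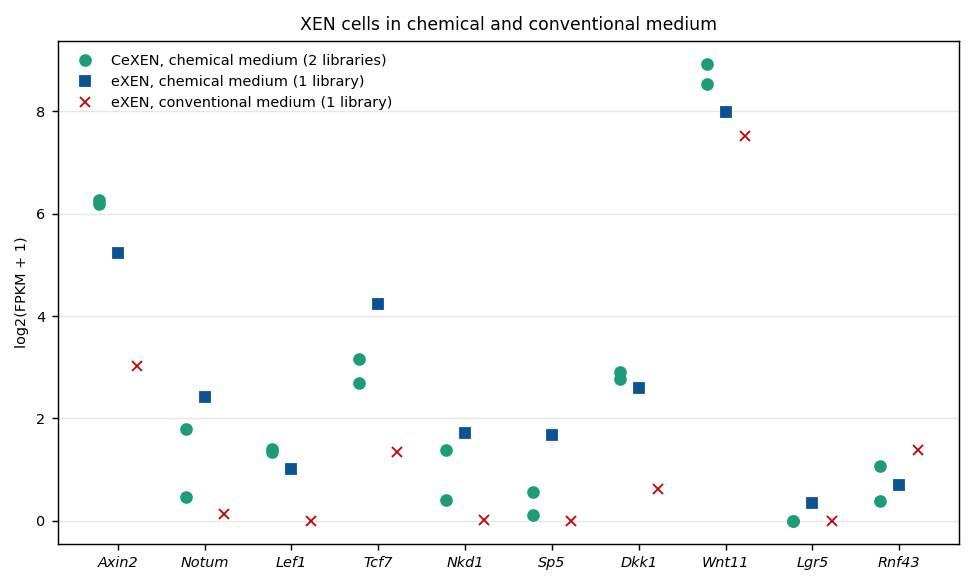
Level as log2(FPKM + 1) in the 4 XEN libraries, CeXEN and eXEN in chemical medium to the left of eXEN in conventional medium for each gene. Axin2, Tcf7 and Dkk1 lie well above the conventional-medium library in all 3 chemical-medium libraries, and Wnt11 is at 183 FPKM or more in all 4.

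With CeXEN added, 3 chemical-medium libraries stood against that 1 conventional library, whose spread the fit took from the other groups, and derivation differed along with medium. Of the 10 genes 3 were higher and 0 lower (4 and 0 at an unadjusted p under 0.05), where 3.81% of all genes tested were called higher and 2.01% lower; the median was 1.20 for the 10 genes and 0.13 for all genes. Axin2, at 71.6 and 76.2 FPKM in CeXEN and 36.8 FPKM in eXEN in chemical medium against 7.18 FPKM, rose by 2.87 ± 0.47 (adjusted p = 0.00256, limma). Dkk1, at 5.82, 6.46 and 5.08 FPKM in the same order against 0.542 FPKM, rose by 2.13 ± 0.45 (adjusted p = 0.0128). Tcf7, at 5.46, 8.0 and 17.9 FPKM against 1.53 FPKM, rose by 2.03 ± 0.28 (adjusted p = 0.000713). For each of these genes the 3 chemical-medium libraries were above the conventional one.

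Notum, at 0.390 and 2.46 FPKM in CeXEN against 4.37 FPKM in eXEN in chemical medium, Sp5 and Nkd1 were lower in both CeXEN libraries than in the eXEN library of the chemical medium, and none of them was called against the conventional medium (Notum, 1.44 ± 0.61, adjusted p = 0.212; Nkd1, 1.15 ± 0.59, 0.330; Sp5, 0.78 ± 0.41, 0.332). With a pseudocount of 0.1 in place of 1, 5 genes were called, since Notum, Lef1 and Nkd1 passed and Dkk1 did not (adjusted p = 0.199); with the XEN libraries alone, 0 were. Of the other Wnt genes 3 were higher and 2 lower in chemical medium (3.41% and 2.27%, near the shares over all genes): Cd44 (2.98), Dkk3 (2.18) and Bambi (1.02) rose, and Wnt7b (-4.42) and Porcn (-2.97) fell. Wnt7b was at 0 and 0 FPKM in CeXEN and 0.306 FPKM in eXEN in chemical medium, against 22.4 FPKM in conventional medium.

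In CiPSCs most of the 10 genes were below the intermediates, apart from the TCF family members. The counts were 1 higher and 7 lower of 10 (2 and 7 at an unadjusted p under 0.05), where 14.7% of all genes tested were called higher and 18% lower. The median was -1.71 for the 10 genes and -0.038 for all genes. Wnt11 was at 0.353, 0.746 and 2.26 FPKM (lowest, median and highest) in the 7 CiPSC lines, against 25.8, 74.0 and 107 FPKM in the 6 intermediates, a change of -5.06 ± 0.28 (adjusted p = 6.00e-09, limma). Dkk1 was at 0, 0.209 and 1.11 FPKM in CiPSCs, against 1.20, 10.9 and 29.3 FPKM in the intermediates (-3.04 ± 0.22, adjusted p = 6.99e-08). Axin2 was at 5.75, 7.45 and 11.8 FPKM in CiPSCs, against 41.9, 50.1 and 69.3 FPKM (-2.55 ± 0.22, adjusted p = 4.47e-07). No CiPSC line reached the lowest intermediate for any of these genes.

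Nkd1, at 0.412, 0.792 and 1.12 FPKM in CiPSCs against 2.94, 4.56 and 24.7 FPKM, fell by 2.12 ± 0.29 on the log2 scale (adjusted p = 2.36e-05). Rnf43, at 0.295, 0.551 and 1.11 FPKM against 2.98, 4.64 and 8.84 FPKM, fell by 1.84 ± 0.16 (adjusted p = 4.18e-07), also without overlap. Sp5 (0.965, 1.40 and 2.38 against 2.0, 5.89 and 26.4 FPKM; -1.57 ± 0.20, adjusted p = 1.13e-05) and Notum (7.34, 7.60 and 10.7 against 5.66, 17.2 and 78.4 FPKM; -1.29 ± 0.29, adjusted p = 0.00155) overlapped. For Notum the day 20 and day 28 intermediates, at 9.73 and 5.66 FPKM, lay within or below the CiPSC range, and its change was under 1 log2 unit without day 12 (-0.92) or without day 16 replicate 2 (-0.98).

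Tcf7 was at 22.5, 30.9 and 33.4 FPKM in CiPSCs, above the 10.4, 13.2 and 18.8 FPKM of the intermediates in every line; its change of 0.98 ± 0.13 (adjusted p = 2.48e-05) was just under the fold set, and passed it after quantile normalization (1.07) and median-of-ratios scaling (1.01). Lef1 was at 2.64, 4.61 and 28.2 FPKM in CiPSCs against 1.31, 3.25 and 4.90 FPKM, a call of 1.10 ± 0.44 (adjusted p = 0.0429) that was lost in a fit with these groups alone (adjusted p = 0.0799), without a filter on low values (0.0798), against day 16 alone (0.0908), with LOWDATA status as a covariate (0.61, adjusted p = 0.650), and without day 16 replicate 1 (0.102), day 16 replicate 2 (0.0632) or day 20 (0.0880). As against MEFs, the adjustment for LOWDATA status rests on the 2 day 16 libraries alone. Lgr5 had at most 0.0407 FPKM in any CiPSC line against 0.233 to 5.32 FPKM in the intermediates (-1.11 ± 0.59, adjusted p = 0.116, limma). It passed the threshold with a pseudocount of 0.1 (-3.26, adjusted p = 0.00213) and in a fit with these groups alone (adjusted p = 1.35e-05). That smaller fit holds no MEF library, so the gap in Lgr5 between the MEF libraries does not enter its SE (0.11 against 0.59). XEN markers summed to 2.18 to 9.98 FPKM in CiPSCs against 655 to 1361 FPKM in the intermediates, and cell type and medium cannot be told apart here.

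The other Wnt genes gave 13 higher and 24 lower of 88 tested in CiPSCs (14.8% and 27.3%, beside 14.7% and 18% of all genes), with a median of -0.58. Of the ligands 0 rose and 5 fell, led by Wnt4 (-3.52) and Wnt5a (-3.04), and of the antagonists 0 rose and 3 fell, Frzb (-4.26), Dkk3 (-4.25) and Dkk2 (-2.52). Receptors split into 4 higher, led by Fzd10 (2.82) and Fzd9 (1.64), and 3 lower, led by Fzd1 (-2.34). In the nuclear list Tle4 (2.32), Ctbp2 (1.92) and Tcf7l1 (1.91) rose, and Tcf7l2 (-2.56) and Bcl9l (-1.77) fell, so that TCF family members moved in opposite directions. Transduction genes gave 3 higher, Dvl2 (1.25), Btrc (1.21) and Apc (1.10), and 0 lower. Other targets gave 3 higher, led by Cdx1 (3.70) and Tbx3 (1.88), and 8 lower, led by Sox9 (-3.75) and Apcdd1 (-3.33).

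Between CiPSCs and ESCs no difference in the 10 genes passed the test. The counts were 0 higher and 0 lower (1 and 0 at an unadjusted p under 0.05), where 0.036% of all genes tested were called higher and 0.03% lower; the median was 0.40 for the 10 genes and 0.014 for all genes. Lef1, the gene at an unadjusted p under 0.05, was at 28.2 FPKM in line C3, 17.2 in N6, 7.0 in N4, 4.61 in G3, 4.40 in C2, 3.45 in C1 and 2.64 in G1, against 1.38 and 2.90 FPKM in ESCs. Lines C3 and N6 thus stood above all other CiPSC and ESC libraries, and the change was 1.39 ± 0.64 (adjusted p = 0.555, limma). Dkk1 was at 1.11 FPKM in G1, 1.01 in C1, 1.00 in C2, 0.209 in G3, 0.0216 in N4 and listed at 0 in C3 and N6, against 0.405 and 0.669 FPKM in ESCs (-0.13 ± 0.32, adjusted p = 0.965). The 2 lines with the highest Lef1 were those with Dkk1 listed at 0; they were also the 2 shallowest lines, with relative depths of 0.398 (C3) and 0.806 (N6) against 1.12 to 1.59 in the other 5.

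Notum was at 7.34 to 8.26 FPKM in 6 lines and 10.7 FPKM in N6, against 2.56 and 7.65 FPKM in ESCs (0.71 ± 0.42, adjusted p = 0.649). Tcf7 was at 22.5 to 33.4 FPKM in CiPSCs against 24.9 and 28.4 FPKM in ESCs (0.09 ± 0.19), and Axin2 at 5.75 to 11.8 FPKM against 8.66 and 3.39 FPKM (0.48 ± 0.32). Wnt11 was at 0.353 to 2.26 FPKM in CiPSCs, highest in C3, against 0.237 and 0.564 FPKM in ESCs (0.46 ± 0.41). All of these ranges overlapped. Sp5 (0.965 to 2.38 against 1.31 and 0.273 FPKM), Rnf43 (0.295 to 1.11 against 0.416 and 0.186 FPKM), Nkd1 (0.412 to 1.12 against 0.858 and 0.566 FPKM) and Lgr5 (at most 0.0407 against 0.0166 and 0.0561 FPKM) did as well. Of the other Wnt genes tested, 0 rose and 0 fell. In simulated data of this design, with 200 genes changed, 86% of those changed by 2 log2 units were called. Far fewer genes were called in the real comparison, so its adjusted cutoff may be stricter and that share lower. Smaller differences may go uncalled, and so may larger ones in genes with a wide SE such as Lef1. Fibroblast markers summed to 41.2 to 78.8 FPKM in C3, G1, G3, N4 and N6 but to 6.16 and 6.88 FPKM in C1 and C2, against 4.37 and 5.09 FPKM in ESCs; their part in the spread of Lef1 and Dkk1 among lines was not tested.

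**Figure D5:**
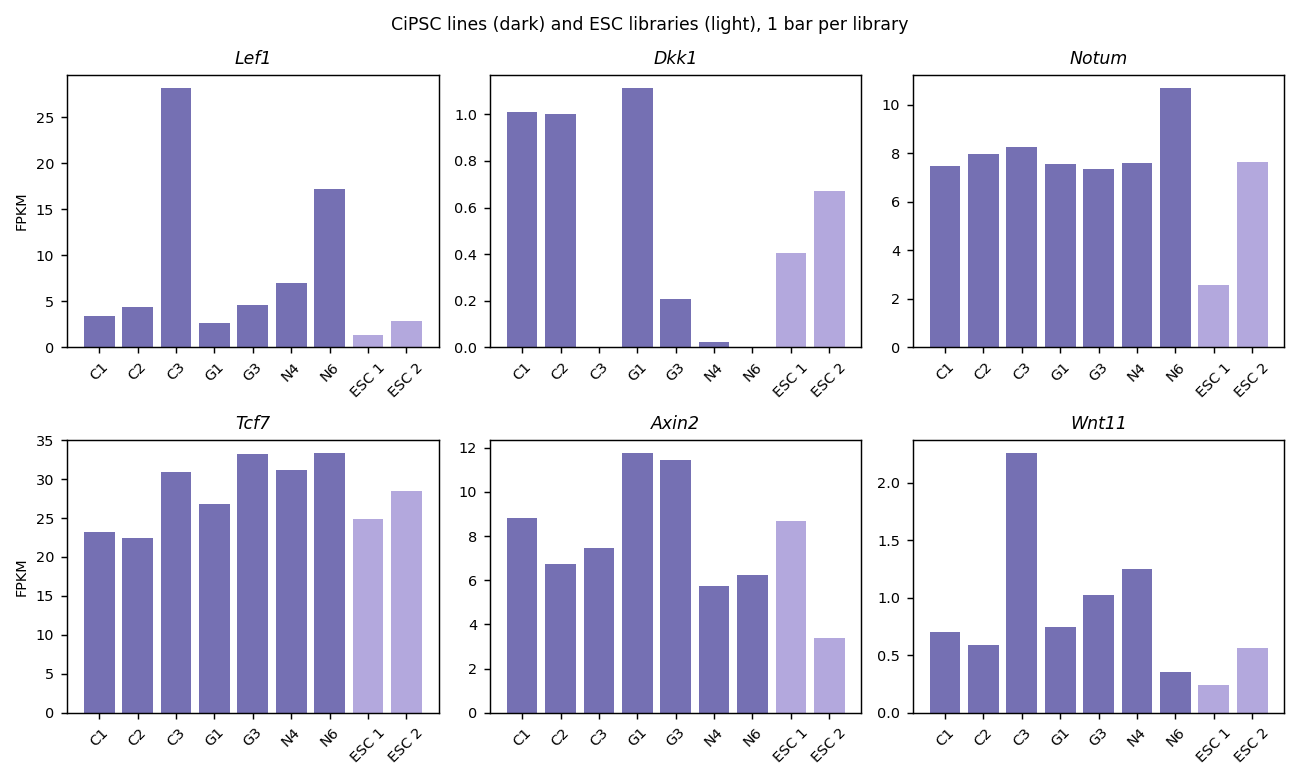
FPKM of 6 genes in the 7 CiPSC lines (dark bars) and 2 ESC libraries (light bars), 1 bar per library. Lef1 stands at 28.2 and 17.2 FPKM in lines C3 and N6, where Dkk1 is listed at 0, while Tcf7 lies between 22.5 and 33.4 FPKM in every CiPSC line.

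Over the 21 libraries the 10 genes did not share a single pattern. On log2(FPKM + 1), Pearson's r was 0.88 for Notum and Sp5, 0.83 for Axin2 and Dkk1, 0.80 for Sp5 and Rnf43 and 0.78 for Nkd1 and Sp5, and lowest at -0.51 for Lef1 and Wnt11. These values describe 21 libraries in which replicates and days share a group. Axin2 correlated at 0.44 with Notum and 0.17 with Tcf7. Among genes tested with a mean of at least 5 FPKM in some group, predicted genes left out, those nearest to Axin2 over the 11 group means were Uqcrfs1 (r = 0.975), Rabl2 (0.970), Ogfod3 (0.967), Rab15 (0.966) and Gtf2ird1 (0.963). Nearest to Notum were Tnfrsf19 (0.977), the antisense gene Notumos (0.976), Mrps34 (0.967), Rbks (0.967) and Atp6v1f (0.952). Tnfrsf19, a receptor of the TNF family listed above among Wnt targets, was at 19.7 FPKM on day 12, 5.74 and 10.5 on day 16, 6.40 on day 20, 5.41 on day 26 and 3.29 on day 28, and Notumos shares exon sequence with Notum. Nearest to Wnt11 were Frzb (0.990), the secreted Wnt antagonist, Tinagl1 (0.989), Bcr (0.979), the endoderm factor Gata6 (0.979) and Tirap (0.974). Frzb was at 97.7 and 109 FPKM in CeXEN, 57.4 in eXEN in chemical and 50.1 in eXEN in conventional medium, 15.9 to 24.0 FPKM in the intermediates and at most 0.0985 FPKM in CiPSCs and ESCs.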

How the data were processed

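Total RNA was made into libraries with the NEBNext Ultra kit, per the labels' protocols, and mapped and quantified with TopHat and Cufflinks on mm10, per the submitters' processing notes; versions and strand settings are not given in the sources used here. The deposited values are FPKM per gene with confidence bounds, computed by the authors. They are not counts, so depth is known only relative to other libraries, from the bounds.

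The 10 genes, the other Wnt genes, the markers and the split of days were chosen with earlier results of these data known. Values were taken as log2(FPKM + 1), which understates changes of low genes. Genes with at least 1 FPKM in at least 2 libraries were kept (16650), and limma 3.58.1 (R 4.3.3, intensity trend) was fitted to all 21 libraries with 11 groups and 10 residual degrees of freedom, with adjustment over all genes tested. On simulated data it called 63% (XEN media) to 94% (CiPSC minus intermediates) of genes changed by 2 log2 units. The simulation changed 200 genes drawn from all those tested, so these shares need not hold for the 10 genes. All 10 genes are named in every group, and of the other Wnt genes up to 4 of each list with the largest called changes; Apcdd1 against MEFs, Sp8, Bcl9l and Tbx3 were named after their values were seen. Alternatives were another pseudocount, other filters, 2 scalings, another variance prior, smaller fits, a replicate block and leaving out libraries. The LOWDATA covariate, leaving out CiPSC lines and a contrast of day 16 and day 28 means with MEFs were added after seeing the data. That contrast kept all libraries in the fit, and its day 16 mean holds a LOWDATA library.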

Additional observations from a re-analysis of the deposited data

Results flagged for a closer look

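In the CiPSC lines Notum was at 10.7 FPKM in line N6, the highest of 7, far enough from the other lines, relative to the range of all 7, to exceed Dixon's 95% critical value. Each of the 10 genes was tested at its highest and lowest line. Chance alone would give about 1 such value in 20 groups tested, a group being the 7 lines for 1 gene.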

How the results depend on the processing

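Depth limits Rnf43, Lgr5 and Dkk1 where they lie near 0 FPKM, and 1 library stands for 6 of the 11 groups. The replicate numbers did not pair the libraries (correlation of their deviations -0.0993 for MEF and day 16, 0.0424 for MEF and CeXEN, -0.00411 for day 16 and CeXEN), and the cause of the changes below was not tested unless a smaller fit names it.

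Against MEFs the 7 higher calls gave no count beyond 1.5 times under any alternative run. With the replicate block 8 genes were higher, Nkd1 (1.06, adjusted p = 0.000796, limma) among them. The lower count was 1 after quantile normalization and 1 with the replicate block, and 0 to 1 with libraries left out. Late against early intermediates gave 0 higher and 1 lower with a pseudocount of 0.1, 0 and 0 with only the groups compared, and 0 to 2 higher and 0 to 3 lower with libraries left out. Intermediates against chemical-medium XEN gave 1 higher and 0 lower with only the groups compared. Chemical against conventional medium gave 5 higher with a pseudocount of 0.1 and 0 with only the groups compared; in the eXEN pair 1 gene (Rnf43, -1.24) was at least 1 log2 unit lower with a pseudocount of 0.1. CiPSCs against intermediates gave 2 higher with a pseudocount of 0.1, 2 after quantile normalization, 2 after median-of-ratios scaling, 0 with no filter, 0 with only the groups compared, 0 with the replicate block, 0 against day 16 alone, 0 with the LOWDATA covariate added after seeing the data, and 0 to 2 with libraries left out.

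Lef1 against MEFs was -0.015 after quantile normalization. Other values that changed sign did so when a library was left out. Lgr5 against MEFs ranged over -4.75 to 0.62 (without MEF replicate 1 and 2 in that order). Late minus early, Axin2 ranged over -0.33 to 0.031, Lef1 over -0.12 to 0.56 and Rnf43 over -0.43 to 0.057. Axin2 against chemical-medium XEN ranged over -0.50 to 0.014. Against ESCs, Axin2 ranged over -0.093 to 1.05, Tcf7 over -0.0014 to 0.18 and Nkd1 over -0.055 to 0.19. None of these was called in the fit reported, and Lgr5 without MEF replicate 2 was under 1 log2 unit.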
